A study of Mus musculus with 2 samples.

Results

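The genes described here encode the oxidative phosphorylation machinery: the subunits of respiratory complexes I to V, cytochrome c and the complex I assembly factors of the Ndufaf family. They were chosen by gene symbol (Nduf, Sdh, Uqcr, Cox4 to Cox8, Atp5 and the mitochondrially encoded mt-Nd, mt-Co, mt-Cytb and mt-Atp genes, with Cyc1 and Cycs). Of 13281 genes with a value, 95 met the rule, of which 84 are encoded in the nucleus and 11 in the mitochondrial genome. Complex I accounted for 12 core subunits, 28 accessory subunits and 8 assembly factors. Complex II accounted for 3 genes, complex III for 10, complex IV for 15 and complex V for 18, and Cycs stood alone. Ndufa4 was counted in complex IV, where its product resides.

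Complexes I to IV pass electrons from NADH and succinate to oxygen and pump protons across the inner mitochondrial membrane (all but complex II), and complex V uses the returning protons to make ATP. Complex II is encoded in the nucleus, whereas the subunits of the others come from both genomes, so nuclear and mitochondrial transcription have to supply parts of the same enzymes. Photoreceptors carry dense mitochondria in the inner segment and are among the cells with the highest demand for ATP.

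The samples were 661W cells, a mouse cone photoreceptor line immortalized by SV40 T antigen and grown from a retinal tumor, kept in DMEM with fetal bovine serum under ordinary culture conditions. In both groups the cells carried a stably selected retroviral construct: the empty vector in the controls, and human TRPM1 with an N-terminal 3xFLAG tag (3xF-TRPM1) in the others. TRPM1 is a calcium-permeable cation channel, and the comparison asks what its expression does to the transcriptome of the line. RNA sequencing gave 1 library per condition, so no difference has a replicate check and neither SD nor p-value is given.

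Levels are CPM, read counts scaled to a size set for each library, as deposited for genes above 1 CPM in both libraries. With 3xF-TRPM1 the listed genes summed to 1013044 CPM, more than a scaling to the total count allows. The deposited values thus carry another scaling. Each library's values came in equal steps (100% within 0.01 of a step), from which its reads were worked back, 16404444 with the empty vector and 17869838 with 3xF-TRPM1 over all listed genes. Log2 fold changes are 3xF-TRPM1 over empty vector on the log2(CPM + 0.5) scale, which understates the change of low genes, and each is followed by the 95% exact (Clopper-Pearson) interval of the read ratio. The intervals cover counting error only, and PCR copies are not independent molecules. Over all genes the median was 0.0093. Of 10 cone markers, Gnat2 was the only one with a value (2.57 CPM with the empty vector and 2.49 CPM with 3xF-TRPM1), and of 6 rod markers Pde6b was the only one (1.79 and 1.13 CPM). The other cone markers, among them the opsins and Arr3, have no value, where the lowest listed level was 1.02 CPM in each library. The cone identity of the line is taken from the authors' description and was not shown by these values. In bulk RNA, fewer cells of a type and less RNA per cell cannot be told apart.

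Most of the 95 genes differed little between the libraries. By a rule of 1.5-fold with an interval that excludes 1-fold, 1 gene was higher with 3xF-TRPM1, mt-Atp6, against 3.91% of all genes. By the same rule 1 gene was lower, Ndufs6, against 3.07% of all genes. With no fold threshold, the interval lay above 1-fold for 12 of the 95 (12.6%), against 23.1% of all genes, and below 1-fold for 20 (21.1%), against 19.7% of all genes. For the other 63 the interval included 1-fold. This second rule depends on depth, and the split depends on scaling: when the libraries were scaled to the total count of the listed genes, 11 lay above and 33 below, with 25.9% of all genes below. The shares of all genes under the main scaling apply to each later count by either rule.

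Among the nuclear-encoded genes the log2 fold change ran from -0.88 to 0.28 with a median of -0.04, with 7 intervals above 1-fold (8.33%) and 18 below (21.4%). For all genes with at least 200 reads in the empty vector library these shares were 26.8% above and 23.4% below. Of the 84, 78 (92.9%) lay within 1.2-fold. The same held for 71.1% of all genes and for 79.6% of the genes with at least 200 reads in the empty vector library, a depth that 79 of the 84 reached. Their summed reads were 0.518% of the listed reads with the empty vector and 0.483% with 3xF-TRPM1. The mitochondrially encoded genes took 2.44% and 2.43%.

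Markers of other cell types had larger differences between the same libraries. Of 8 fibroblast and matrix markers 7 had a value, all 7 intervals lay above 1-fold and 6 passed the 1.5-fold rule, and their summed level was 8278 CPM with the empty vector and 12397 CPM with 3xF-TRPM1. Of 6 glial markers 4 had a value and 3 were higher by the same rule, with a summed level of 667 and 1077 CPM, while the macrophage marker Cd68, the only one of 5 with a value, was lower at 4.84 and 2.95 CPM. Their part in the results on oxidative phosphorylation genes was not tested.

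**Figure D1:**
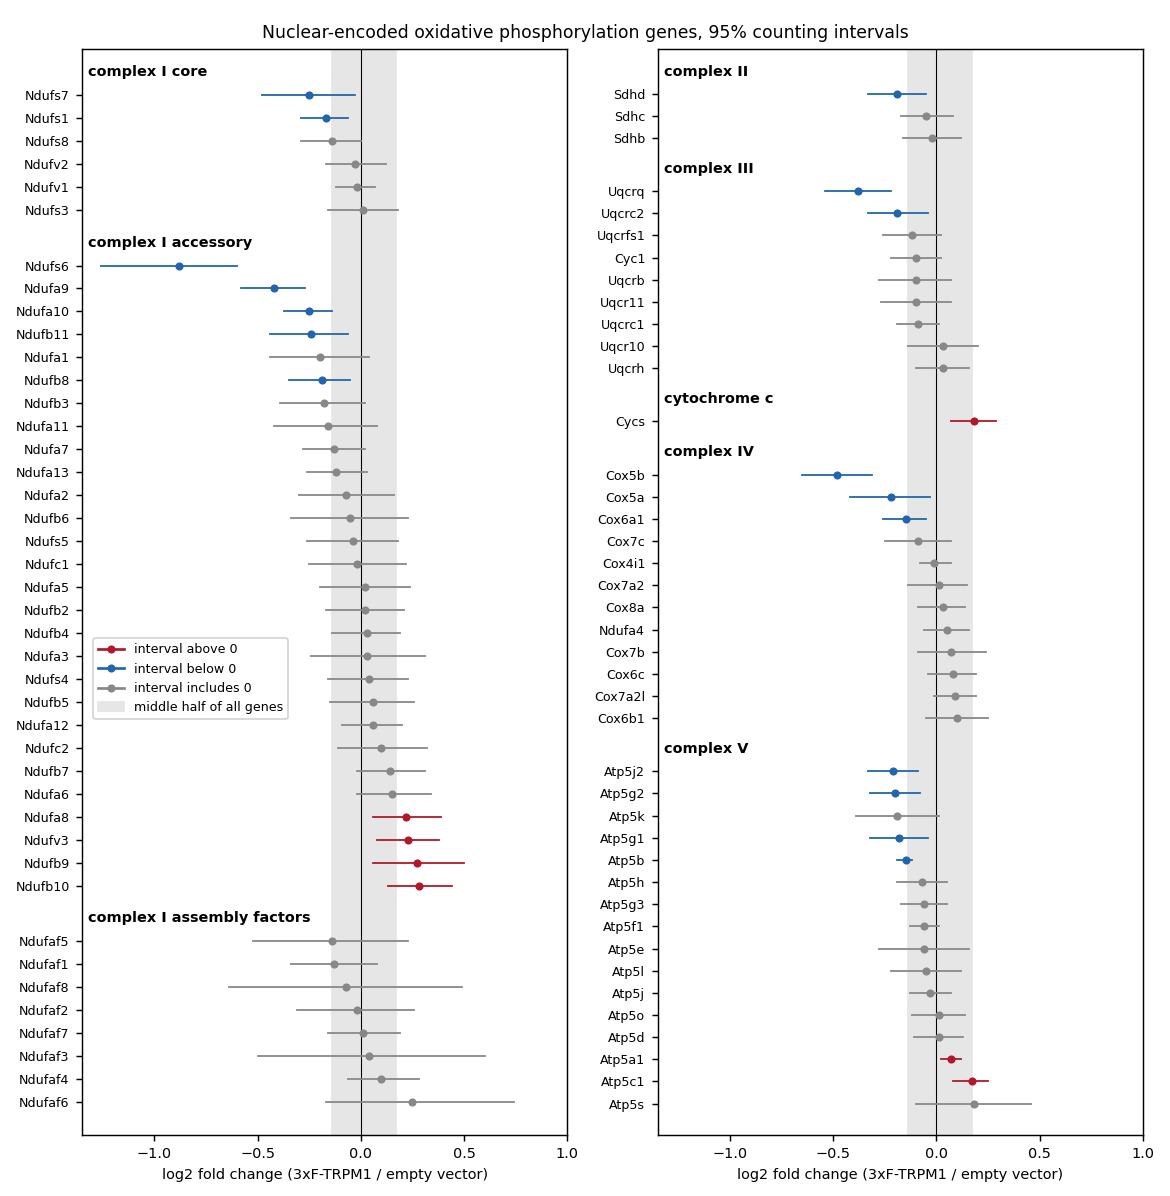
Log2 fold change (3xF-TRPM1 over empty vector) of 83 of the 84 nuclear-encoded genes by complex, with lines for the 95% counting interval of 1 library against 1 library. The grey band spans the middle 50% of all genes, from -0.14 to 0.17; Ndufs6 lies farthest to the left at -0.88, and Ndufb10 farthest to the right at 0.28.

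The 7 nuclear core subunits of complex I build its matrix arm, where NADH is oxidized and electrons travel along iron-sulfur clusters to ubiquinone. Their summed level was 454 CPM with the empty vector and 414 CPM with 3xF-TRPM1, a log2 ratio of -0.13 (-0.18 to -0.09). The median log2 fold change was -0.14, with 3 intervals below 1-fold and 0 above. Ndufs7, which holds the last iron-sulfur cluster before ubiquinone, went from 20.9 to 17.5 CPM, a log2 fold change of -0.25 (-0.48 to -0.03). Ndufs1, the large iron-sulfur subunit at the NADH end, had 81.1 and 71.8 CPM (-0.17, -0.29 to -0.06). These genes sit at opposite ends of the arm, on the ubiquinone side and on the NADH side. Ndufv1, the flavin-bearing subunit that oxidizes NADH, had 103 and 101 CPM (-0.02, -0.12 to 0.07), and Ndufs3 had 33.2 and 33.3 CPM (0.01, -0.16 to 0.18).

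The 28 accessory subunits surround this core and are needed for its assembly and stability. They spread more widely, from -0.88 to 0.28 around a median of 0.00, with 4 intervals above 1-fold and 5 below, and their summed level was 822 CPM with the empty vector and 802 CPM with 3xF-TRPM1.

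Ndufs6 encodes a zinc-binding subunit that is added late to the NADH-oxidizing end of complex I. Its level was 13.3 CPM with the empty vector, from 222 reads, and 6.97 CPM with 3xF-TRPM1, from 123 reads, a log2 fold change of -0.88 (-1.26 to -0.60). This was the lowest of the 95, and place 158 of 13281 counted from the lowest. The next genes up, Cox5b at -0.48 and Ndufa9 at -0.42, did not reach the 1.5-fold rule.

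Ndufs6 lies on the minus strand of chromosome 13 (GRCm38, 73319838 to 73328542), and Mrpl36, which encodes a protein of the large mitochondrial ribosomal subunit, starts at 73328513 on the plus strand, so that the outer exons of the pair overlap by 30 bases head to head. Mrpl36 was chosen after its values were seen, as the neighbour of Ndufs6. Its level was 9.33 CPM (156 reads) and 5.95 CPM (105 reads), and its log2 fold change was -0.61 (-1.02 to -0.28), so both genes of the pair were lower by the 1.5-fold rule. The strand setting of the counting is not given in the sources used here, and reads within the overlap may not have been told apart. In all, 18 nuclear-encoded genes shared exonic bases with 20 listed genes on the opposite strand. Of those 20 neighbours, Mrpl36 was the only one past the 1.5-fold rule, 4 had an interval above 1-fold and 5 below. Among all genes 3.91% were higher and 3.07% lower by that rule, and 23.1% had an interval above 1-fold and 19.7% below. Counts this small do not set the neighbours apart from all genes.

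The promoter windows of Ndufs6, Cox5b, Ndufa9 and Cycs are shown because the first holds both starts of the head-to-head pair, and because Cox5b and Ndufa9 have intervals below 1-fold and Cycs above it. Each runs from 250 bases before to 50 after the RefSeq start (build GRCm38.p6), 5' to 3' on the gene's strand, with capitals for matches to 4 motifs searched on both strands: GCGCANGCG for NRF1, CCGGAAG for ETS factors such as GABPA, AAGATGGC for YY1 and AAGGTCA for estrogen-related receptors.
Ndufs6, chr13:73328433-73328732, minus strand: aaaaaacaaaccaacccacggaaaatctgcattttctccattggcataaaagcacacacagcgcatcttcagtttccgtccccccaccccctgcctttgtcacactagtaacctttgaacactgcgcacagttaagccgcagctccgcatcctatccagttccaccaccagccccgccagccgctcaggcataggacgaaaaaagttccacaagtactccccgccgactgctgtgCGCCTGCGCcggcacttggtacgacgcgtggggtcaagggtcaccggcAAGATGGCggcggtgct
Cox5b, chr1:36691237-36691536, plus strand: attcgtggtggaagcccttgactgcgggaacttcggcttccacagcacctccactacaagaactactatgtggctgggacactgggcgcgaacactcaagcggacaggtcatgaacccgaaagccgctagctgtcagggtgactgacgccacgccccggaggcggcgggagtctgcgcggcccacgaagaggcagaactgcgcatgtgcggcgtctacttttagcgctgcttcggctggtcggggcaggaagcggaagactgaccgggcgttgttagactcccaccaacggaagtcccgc
Ndufa9, chr6:126849095-126849394, minus strand: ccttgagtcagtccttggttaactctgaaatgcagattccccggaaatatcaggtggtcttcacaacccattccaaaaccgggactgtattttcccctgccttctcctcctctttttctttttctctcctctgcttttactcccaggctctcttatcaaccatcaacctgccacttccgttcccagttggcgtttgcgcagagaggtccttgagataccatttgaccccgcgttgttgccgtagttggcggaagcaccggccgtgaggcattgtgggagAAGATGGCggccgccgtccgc
Cycs, chr6:50566520-50566819, minus strand: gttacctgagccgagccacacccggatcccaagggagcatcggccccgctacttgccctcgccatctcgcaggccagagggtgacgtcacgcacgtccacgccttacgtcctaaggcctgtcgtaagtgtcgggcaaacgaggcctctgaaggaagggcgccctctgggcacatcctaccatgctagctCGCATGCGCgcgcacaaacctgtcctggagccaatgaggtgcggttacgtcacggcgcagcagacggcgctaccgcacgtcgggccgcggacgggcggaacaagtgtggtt
In the Ndufs6 window the capitals mark an NRF1 match before the start and a YY1 match after it, in the Ndufa9 window a YY1 match after the start, and in the Cycs window an NRF1 match before it. The Cox5b window held no match, which says only that these letters are not in it. RefSeq held 74 windows for 69 of the 84 nuclear-encoded genes, matched by symbol. The NRF1 motif was in 31.1% of them, against 13.2% of 12513 windows of listed genes and 6.25% of all 32851 windows. The ETS motif was in 24.3% (17.5% of listed genes' windows and 8.86% of all), the YY1 motif in 13.5% (4.38% and 2.75%) and the estrogen-related receptor motif in 10.8% (3.10% and 4.72%). A match of letters is a description and not a binding site.

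Among the other accessory subunits, Ndufa9, which binds a nucleotide cofactor near the joint of the arms, had 44.5 CPM with the empty vector and 33.2 CPM with 3xF-TRPM1, a log2 fold change of -0.42 (-0.58 to -0.27). Ndufa10 (-0.25), Ndufb11 (-0.24) and Ndufb8 (-0.19), all of the membrane arm, were the remaining accessory genes with intervals below 1-fold. On the other side, Ndufb10 had 36.2 and 44 CPM, a log2 fold change of 0.28 (0.13 to 0.44), and Ndufb9 had 18.1 and 21.9 CPM, a log2 fold change of 0.27 (0.06 to 0.50). Both belong to the far end of the membrane arm, so subunits of the same arm lay on opposite sides of 1-fold. Ndufv3, a small companion of the flavoprotein subunits, stood at 0.23 (0.08 to 0.38), and Ndufa8, which faces the intermembrane space, at 0.22 (0.06 to 0.39). Of the 10 listed Ndufb genes, 2 intervals lay above and 2 below 1-fold, with a median of 0.02. Of the 8 Ndufs genes, 0 lay above and 4 below, with a median of -0.16, against 23.1% above and 19.7% below over all genes. The Ndufs symbols take in core and accessory subunits, so this count repeats genes already counted above. Per kilobase, the highest accessory gene with the empty vector was Ndufa1, a membrane arm subunit encoded on the X chromosome, at 42.7 and 37.1 CPM per kilobase (-0.20, -0.44 to 0.04). With 3xF-TRPM1 it was Ndufa8, at 40.1 and 46.8 CPM per kilobase.

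The 8 Ndufaf assembly factors, which take part in building complex I without being subunits of it, had 116 CPM in sum with the empty vector and 117 CPM with 3xF-TRPM1. None of the 8 passed either rule. For those with a mean of 5 CPM or more, the log2 fold change ran from -0.14 for Ndufaf5, which hydroxylates Ndufs7, through -0.13 for Ndufaf1 and 0.01 for Ndufaf7, a methyltransferase, to 0.10 for Ndufaf4. Of 11 further complex I assembly factors, 10 had a value, 1 was lower by the 1.5-fold rule and 0 were higher. The lower gene, Dmac2, which acts on the distal membrane arm, had 8.67 and 5.33 CPM (-0.65, -1.09 to -0.32), and at the other end Tmem126a stood at 0.21 (0.01 to 0.41). Ndufab1, the mitochondrial acyl carrier protein that also serves as a complex I subunit, falls outside the symbol rule and had 34.1 and 35.7 CPM. Ndufb1-ps, listed without a symbol and named here from the annotation, had 18.5 and 21.4 CPM (0.21, -0.01 to 0.44).

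Complex II oxidizes succinate and links the tricarboxylic acid cycle to the chain. All 3 of its genes under the rule had log2 fold changes below 0 and 1 interval lay below 1-fold, that of the membrane anchor Sdhd, with 53.7 CPM with the empty vector and 47.2 CPM with 3xF-TRPM1 (-0.19, -0.33 to -0.05). The other anchor, Sdhc, had 64 and 62 CPM (-0.05, -0.17 to 0.08), and the iron-sulfur subunit Sdhb 47.8 and 47.1 CPM (-0.02, -0.16 to 0.12). Sdha, the flavoprotein that oxidizes succinate, is not matched by the rule and had 235 and 193 CPM, a log2 fold change of -0.28 (-0.35 to -0.21), with an interval that overlaps that of Sdhd. Of its assembly factors 3 of 4 had a value and 0 passed either rule, from Sdhaf2, which attaches the flavin, at -0.08 to Sdhaf3 at 0.23 (-0.15 to 0.64).

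Of the 9 nuclear genes of complex III, which passes electrons from ubiquinol to cytochrome c, 7 had log2 fold changes below 0 and 2 intervals lay below 1-fold. Their summed level was 463 CPM with the empty vector and 430 CPM with 3xF-TRPM1, a log2 ratio of -0.11 (-0.15 to -0.06). Uqcrq, a small subunit that contacts cytochrome b, had 42.1 and 32.3 CPM (-0.38, -0.54 to -0.22), and the core protein Uqcrc2 had 48.4 and 42.5 CPM (-0.19, -0.33 to -0.04). Cyc1, the cytochrome c1 that hands electrons on, had 68.7 and 63.9 CPM (-0.10, -0.22 to 0.02). Uqcr10, the highest of the 9 per kilobase (57.7 and 58.9 CPM per kilobase), and the hinge protein gene Uqcrh both stood at 0.03. Of 9 complex III assembly factors 6 had a value, from Uqcc1, needed for cytochrome b, at -0.21 (-0.36 to -0.06) to Bcs1l, which inserts the Rieske protein, at 0.11 (-0.14 to 0.37).

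Cycs, the mobile carrier between complexes III and IV, lay on the other side of 1-fold. It had 79 CPM with the empty vector and 89.6 CPM with 3xF-TRPM1, a log2 fold change of 0.18 (0.07 to 0.29).

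Complex IV reduces oxygen to water. The 12 nuclear genes summed to 824 CPM with the empty vector and 815 CPM with 3xF-TRPM1, with a median log2 fold change of 0.02, 0 intervals above 1-fold and 3 below. Cox5b, a zinc-binding subunit on the matrix side, had 40.2 and 28.8 CPM (-0.48, -0.65 to -0.31), and its partner on that side Cox5a had 27 and 23.1 CPM (-0.22, -0.42 to -0.03). Cox6a1, with 136 and 122 CPM per kilobase beside 124 and 123 for Cox4i1, was the last of the 3, at -0.15 (-0.26 to -0.05). The others lay between -0.09 for Cox7c and 0.10 for Cox6b1, and none of those intervals excluded 1-fold.

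Several complex IV subunits exist as isoforms with different tissue ranges, and the isoforms with a value were those of broad expression. Cox4i1 had 192 CPM with the empty vector and 191 CPM with 3xF-TRPM1, Cox6b1 41.9 and 45 CPM, Cox7a2 46.1 and 46.3 CPM, and Cox8a 72.7 and 74.1 CPM. Cox7a2l, whose product joins complexes III and IV into supercomplexes, had 88.5 and 94.2 CPM (0.09, -0.01 to 0.19). The partner isoforms Cox4i2, Cox6a2, Cox6b2, Cox7a1, Cox7b2, Cox8b and Cox8c, and Ndufa4l2, the isoform of Ndufa4 (76.1 and 78.9 CPM), have no value in the table used and were not analysed here. Of 24 genes listed as complex IV assembly factors 21 had a value and 0 passed the 1.5-fold rule. They ran from Cox16 at -0.36 (-1.19 to 0.27, 39 and 30 reads) to Fastkd1 at 0.36 (0.11 to 0.64). Fastkd1 acts on mitochondrial RNA, so its place in this list is uncertain. The next highest was Coa4 at 0.23 (-0.47 to 1.08, 27 and 35 reads).

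Complex V held the nuclear-encoded gene with the highest level, in CPM and per kilobase. Atp5b, the catalytic beta subunit, had 823 CPM with the empty vector and 740 CPM with 3xF-TRPM1 (194 and 175 CPM per kilobase), a log2 fold change of -0.15 (-0.19 to -0.12). Atp5a1, the alpha subunit that alternates with it in the head, had 367 and 385 CPM and stood at 0.07 (0.02 to 0.12, an interval that included 1-fold under scaling to the total count), and Atp5c1, the central gamma stalk, had 119 and 133 CPM and stood at 0.17 (0.08 to 0.25). The head and its stalk thus held 1 gene on the lower side and 2 on the higher side by their intervals. Atp5s, a coupling factor with 11.8 and 13.4 CPM, stood at 0.18 (-0.10 to 0.46).

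Over its 16 nuclear genes complex V summed to 2161 and 2067 CPM, a log2 ratio of -0.06 (-0.09 to -0.04), with 2 intervals above and 4 below 1-fold. Atp5g1, Atp5g2 and Atp5g3 encode the same mature c subunit of the membrane rotor from 3 separate genes. They had log2 fold changes of -0.18 (-0.32 to -0.04), -0.20 (-0.32 to -0.08) and -0.06 (-0.17 to 0.05), and their sum went from 213 CPM with the empty vector to 194 CPM with 3xF-TRPM1 (-0.14, -0.21 to -0.07). The lowest fold change in the complex was that of Atp5j2, the membrane subunit f, at 70.4 and 60.8 CPM (-0.21, -0.33 to -0.09). Of 8 assembly and regulatory genes 7 had a value, with a median of -0.27. Of these 7, 3 had log2 fold changes above 0, and 5 intervals included 1-fold. Tmem70, which assembles the c ring, had 26.6 CPM (445 reads) with the empty vector and 17.3 CPM (306 reads) with 3xF-TRPM1 and was lower by the 1.5-fold rule (-0.60, -0.83 to -0.40). The inhibitor gene Atpif1 stood at the other end, at 0.15 (-0.09 to 0.40).

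**Figure D2:**
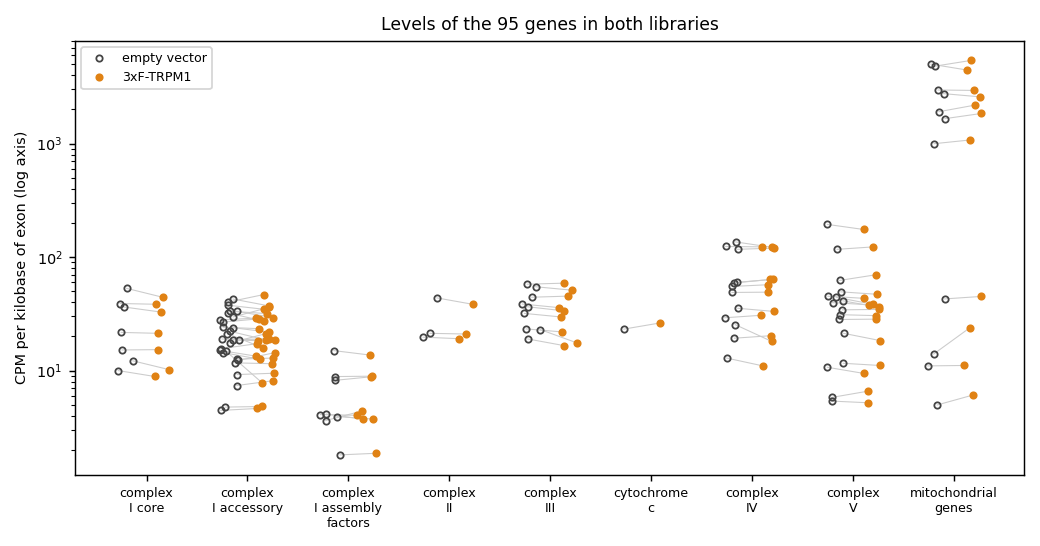
CPM per kilobase of exon (log axis) of the 95 genes in the empty vector library (open) and the 3xF-TRPM1 library (filled), by complex, with the mitochondrially encoded genes apart; lines join the 2 values of a gene. Nuclear-encoded genes reach 194 CPM per kilobase (Atp5b), and the mitochondrially encoded genes split into 7 between 997 and 5394 and 4 between 4.98 and 45.

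The mitochondrial genome encodes core subunits of complexes I, III, IV and V, transcribed by its own polymerase as long precursors and cut into single mRNAs. Of the 13 protein genes, 11 had a value, and mt-Nd3 and mt-Nd4l were not analysed here. mt-Nd1, the first protein gene after the rRNAs, had 4793 CPM with the empty vector and 4247 CPM with 3xF-TRPM1 (-0.17, -0.19 to -0.16), and the next, mt-Nd2, had 2856 and 2677 CPM (-0.09, -0.11 to -0.08). mt-Co1, the catalytic subunit of complex IV, had 7412 and 8333 CPM (0.17, 0.16 to 0.18), and mt-Cytb, the cytochrome b of complex III, had 3389 and 3360 CPM (-0.01, -0.03 to 0.00). The 3 complex I genes farther along lay above 1-fold: mt-Nd4 at 0.11 (0.08 to 0.14), mt-Nd5 at 0.15 (0.13 to 0.17) and mt-Nd6 at 0.19 (0.16 to 0.22). The complex I genes of the mitochondrial genome thus lay on both sides of 1-fold, and intervals this narrow leave out every difference between cultures. mt-Nd6 is the only one of them on the light strand, and without a known strand setting its reads cannot be told apart from those of the opposite strand. The 2 rRNAs, which are not members, had larger differences, with mt-Rnr1 at 1173 and 1685 CPM (0.52, 0.50 to 0.55) and mt-Rnr2 at 2088 and 2720 CPM (0.38, 0.36 to 0.40).

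**Figure D3:**
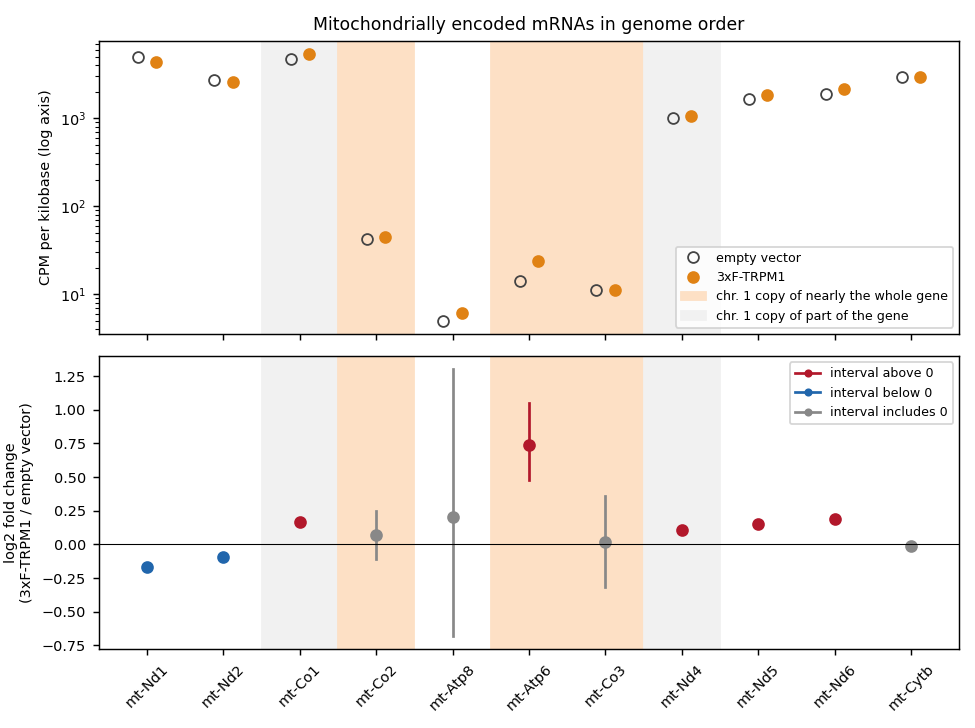
The 11 mitochondrially encoded mRNAs in genome order, with the level in CPM per kilobase on a log axis (upper panel, open for the empty vector and filled for 3xF-TRPM1) and the log2 fold change with its 95% counting interval (lower panel). Shading marks genes with a near-identical copy on chromosome 1; mt-Co2, mt-Atp8, mt-Atp6 and mt-Co3 lie at or below 45 CPM per kilobase, and mt-Atp6 is the only one past the 1.5-fold rule.

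The neighbours mt-Co2, mt-Atp8, mt-Atp6 and mt-Co3 were far below the rest, with mt-Co2 at 42.8 CPM per kilobase beside mt-Co1 at 4798 CPM per kilobase with the empty vector. A stretch of chromosome 1 (GRCm38, 24611535 to 24616197, minus strand) carries annotated transcripts that match genes of this group base for base: Gm28661 over 681 bases of mt-Co2, Gm10925 over 678 bases of mt-Atp6 and Gm28437 over 783 bases of mt-Co3. Gm28439 matches the first 876 bases of mt-Nd4, and Gm29216 matches 31.3% of mt-Co1 at 99.79%. How the counting treated reads that align equally well to both places is not given in the sources used here, so the CPM of these 5 genes is uncertain. mt-Atp8 was not compared with chromosome 1, and its CPM is no more certain. A copy on chromosome 2, Gm13341, is 95.91% identical to mt-Co2, with identical runs of up to 173 bases.
mt-Co2, bases 445 to 564 of the mRNA: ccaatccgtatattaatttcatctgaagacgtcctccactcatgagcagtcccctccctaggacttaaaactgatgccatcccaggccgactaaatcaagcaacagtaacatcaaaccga
Gm28661, chromosome 1: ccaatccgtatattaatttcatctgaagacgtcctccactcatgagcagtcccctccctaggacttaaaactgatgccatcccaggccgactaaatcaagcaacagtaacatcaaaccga
Gm13341, chromosome 2: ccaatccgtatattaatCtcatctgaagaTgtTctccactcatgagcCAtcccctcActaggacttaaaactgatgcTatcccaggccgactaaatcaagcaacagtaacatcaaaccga
These stretches are shown because they set a read of mt-Co2 against both nuclear copies, and the capitals mark the 7 bases at which Gm13341 differs from mt-Co2. The sequences are from the GENCODE M21 transcripts on GRCm38.

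mt-Atp6, the proton-channel subunit a of complex V, had 9.56 CPM with the empty vector, from 160 reads, and 16.3 CPM with 3xF-TRPM1, from 287 reads, and stood at 0.74 (0.48 to 1.05), place 301 of 13281 from the highest. Its copy Gm10925 had 22.5 and 27.1 CPM, and the sum of both went from 32 to 43.4 CPM, a log2 ratio of 0.44 (0.28 to 0.60), which is under 1.5-fold. For mt-Co2 (29.3 and 30.8 CPM) the larger difference was in the copy, Gm28661, with 20.9 and 32.3 CPM, and the sum stood at 0.33 (0.20 to 0.46). mt-Co3 had 8.61 and 8.73 CPM, and its sum with Gm28437 stood at 0.15 (-0.05 to 0.35). mt-Atp8 had 1.02 CPM (17 reads) and 1.25 CPM (22 reads), with an interval from -0.68 to 1.30, and shares 43 bases with mt-Atp6. The 1.5-fold call of mt-Atp6 thus holds for the reads assigned to it and not for the sum with its copy. Among the 84 nuclear-encoded genes, 15 had a near-identical copy (at least 98% over at least 200 bases), Cox5b, Cycs, Atp5g1 and Atp5g2 among them, and their values are uncertain for the same reason. The median log2 fold change was -0.05 for these 15 and -0.03 for the other 69.

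Summed over all 11, the mitochondrially encoded genes went from 23887 to 24648 CPM (0.05, 0.04 to 0.05), and this sign turned under scaling to the total count of the listed genes (-0.0016).

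Regulators of mitochondrial gene expression, both the nuclear factors that drive these genes and the proteins that transcribe and process mitochondrial RNA, were taken as a list of 38, of which 35 had a value. In this list 2 genes were higher by the 1.5-fold rule and 0 lower, against 3.91% and 3.07% of all genes. Its intervals lay above 1-fold for 5 genes (14.3%, against 23.1% of all genes) and below for 9 (25.7%, against 19.7%). The median was -0.07. Ppargc1a, the coactivator PGC-1alpha that raises mitochondrial biogenesis in many tissues, had 17.7 CPM with the empty vector, from 296 reads, and 37.9 CPM with 3xF-TRPM1, from 669 reads, and its log2 fold change was 1.08 (0.90 to 1.30). Its relative Ppargc1b had 1.32 CPM (22 reads) and 3.91 CPM (69 reads), and stood at 1.28 (0.86 to 2.34). Both estimates thus exceed 2-fold, but both intervals reach below it. The median of the 84 nuclear-encoded genes was -0.04, and 0 of them were higher by the 1.5-fold rule.

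The transcription factors that drive nuclear genes of the complexes differed less. Gabpb1, the activating subunit of GABP, stood at 0.35 (0.22 to 0.49), the DNA-binding subunit Gabpa at -0.15 (-0.22 to -0.09), Yy1 at 0.21 (0.16 to 0.27), Esrra at 0.22 (-0.01 to 0.47) and Nrf1 at -0.09 (-0.26 to 0.09). Tfam, which packages and transcribes mitochondrial DNA, had 77.2 and 77.3 CPM. The polymerase gene Polrmt stood at -0.04 (-0.22 to 0.15), and the elongation factor gene Tefm was the lowest of the list at -0.40 (-0.80 to -0.06). Lrpprc, which stabilizes mitochondrial mRNAs, had 144 and 128 CPM (-0.17, -0.26 to -0.09).

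**Figure D4:**
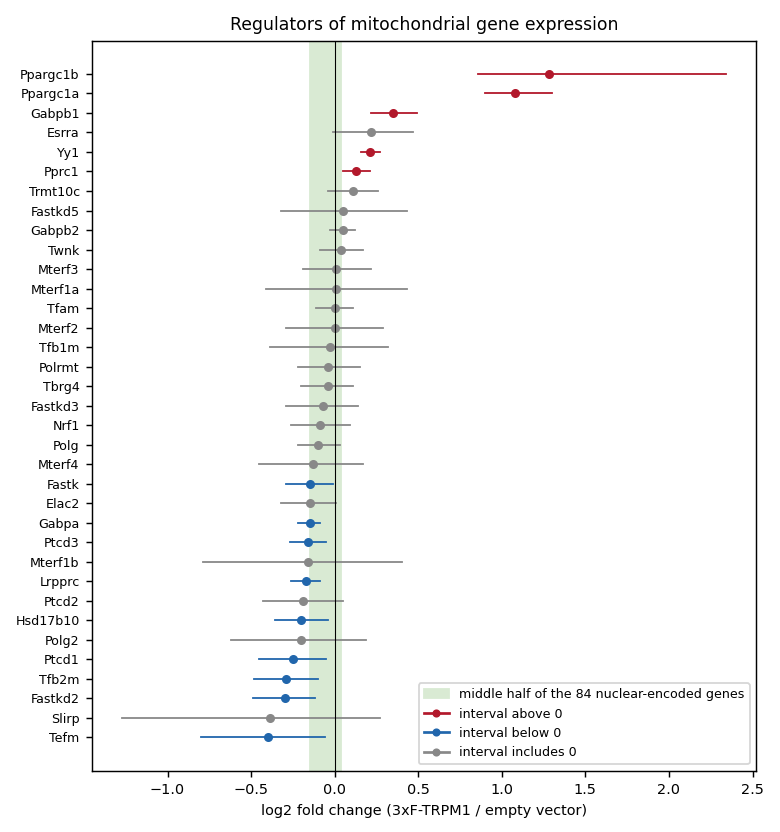
Log2 fold change (3xF-TRPM1 over empty vector) of 35 regulators of mitochondrial gene expression with 95% counting intervals; the band spans the middle 50% of the 84 nuclear-encoded oxidative phosphorylation genes. Ppargc1b at 1.28 and Ppargc1a at 1.08 lie apart from the rest, which run from -0.40 to 0.35.

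In the neighbouring pathways, 20 of 20 tricarboxylic acid cycle genes had a value, 0 passed the 1.5-fold rule, and the median was -0.07. Of their intervals 1 lay above 1-fold (5%, against 23.1% of all genes) and 6 below (30%, against 19.7%). The 6 include Sdha, already given above under complex II. Idh3g, a subunit of the NAD-dependent isocitrate dehydrogenase, had 45.9 and 33.5 CPM (-0.45, -0.61 to -0.30), and Idh2, the NADP-dependent enzyme, had 78 and 95.3 CPM (0.29, 0.18 to 0.40). Of 15 genes of coenzyme Q synthesis 12 had a value and 0 passed the 1.5-fold rule. Coq2, which attaches the isoprenoid tail, had 33.5 and 26.9 CPM (-0.31, -0.50 to -0.14), and the hydroxylase gene Coq6 had 18.3 and 22.1 CPM (0.27, 0.05 to 0.49).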

How the data were processed

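Libraries were made with the KAPA mRNA HyperPrep kit and sequenced on a NovaSeq instrument. Per the submitters' processing notes, the authors used HISAT2 2.1.0 for alignment (GRCm38), featureCounts 2.0.0 for gene counts, edgeR 3.28.1 and a package named as DESeq 1.40.0. Not given in the sources used here are the annotation release, the strand setting and the treatment of reads with several alignments. The values used were CPM per gene as deposited, for 13281 genes; 2 columns that repeat them, the authors' fold change and p-value columns and their table of gene set scores were not used. Deposited gene lengths equalled GENCODE M21 exon lengths in 100% of genes, which places the identifiers and coordinates on GRCm38.

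Reads were CPM divided by the step of each library (0.0598 and 0.0567). The steps imply sizes for scaling of 16728172 reads for the empty vector and 17639743 for 3xF-TRPM1. The second is below the 17869838 reads of its listed genes, so it is not a total count. The main values keep this deposited scaling, and the alternatives with total counts replace it. Raw counts were planned; as CPM were deposited, reads served only for intervals and scaling, and no count test was run. Fold changes used a pseudocount of 0.5 CPM and a minimum mean of 1 CPM that excluded 0 genes. A call needed 1.5-fold and a 95% exact interval that excludes 1-fold. The calling procedure was tested on simulated data with counting error only, which cannot test how it treats differences between cultures. The members and lists were chosen with earlier results of these data known. Named were all mitochondrial members, calls, the 2 lowest and 2 highest per class at a mean of at least 5 CPM, the most abundant per kilobase, the isoforms, and the extremes of each list; other genes were added after their values were seen. Values of 1 gene are not reported here, and the plot of fold changes by complex omits it. Alternatives were other scalings, pseudocounts of 0.1 and 1, a mean of at least 5 CPM, a 2-fold threshold, length-decile centring and, chosen after seeing the data, leaving out genes with near-identical copies. Copies were found with BLAST+ 2.17.0 against GENCODE transcripts. Software was matplotlib 3.10.9, pandas 2.3.3, scipy 1.17.1 and numpy 2.4.6 under Python 3.11.15.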

Additional observations from a re-analysis of the deposited data

How the results depend on the processing

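With 1 library per condition no replicate could be left out, and no paired analysis was possible because each group holds 1 sample. At a 2-fold threshold 0 of the 95 members were higher and 0 lower, against 115 and 117 of all 13281 genes. Shares of all genes this small do not set the members apart. Ndufs6, mt-Atp6, Dmac2 and Tmem70 lost their calls at that threshold. Without the mitochondrial members that match a nuclear copy, 0 were higher, and the same held without all members that have a near-identical copy; both alternatives were chosen after seeing the data. The median log2 fold change of the mitochondrial members, 0.11, was 0.07 without those that match a copy, 0.06 and 0.07 under scaling to the total count with and without mitochondrial genes, and 0.14 with length-decile medians taken out. Under those 2 scalings the members with an interval below 1-fold were 33 and 32, and the summed log2 ratio of the mitochondrial members turned to -0.0016 and -0.0002 (0.04 with median-of-ratios size factors). Under the first, the summed log2 ratio was -0.18 for the complex I core, -0.15 for complex III, and under both it was -0.08 for the complex I accessory subunits, -0.06 for complex IV and -0.11 for complex V. The cause of these shifts beyond the scaling itself was not tested. Depth limits the low genes: mt-Atp8 rests on 17 and 22 reads.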
